A study of Homo sapiens with 6 samples.

Results

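The genes described here encode the proteins of the mitochondrial ribosome that carry the names MRPL or MRPS followed by a number. The names stand for the large and the small subunit, with exceptions. Taken from the GENCODE release 44 annotation of GRCh37 (hg19) by name and protein-coding type alone, they are 78 of 19794 protein-coding genes, 49 MRPL and 29 MRPS, spread over 21 chromosomes. No measured value entered that choice. The series is a PAR-CLIP study in HEK293, a long-established cell line of human embryonic kidney origin, that set the RNA recovered with a non-RNA-binding control protein against the RNA recovered with HuR. In PAR-CLIP, cells take up 4-thiouridine (4SU), UV light crosslinks it to bound protein, and the crosslinked base is often read as C. T-to-C conversions are therefore taken as a sign of crosslinks. The paper states that 4SU RNA without a crosslink also converts, at a lower rate, so a conversion alone is no proof of one.

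All cells were grown with 4SU, UV irradiated as they would be for PAR-CLIP, and their lysates treated with RNase T1. For GFP, the lysate held inducible FLAG-tagged GFP, the FLAG immunoprecipitate was run on a gel, and 3 regions of the lane near 20, 35 and 45 kDa gave the libraries G20, G35 and G45. For HuR, cells carrying inducible FLAG-tagged HuR gave replicate libraries, HuR1 and HuR2. Total was made from lysate RNA without immunoprecipitation, released with proteinase K and depleted of rRNA, and is a single library. The tagged proteins were expressed from introduced, doxycycline-inducible constructs and not from the endogenous genes. The GFP slices are regions of a gel and not repeats of one sample, and nothing in the labels says that the libraries came from separate cultures, so p-values between HuR and GFP measure only the spread between these libraries. The libraries are bulk preparations, in which fewer cells holding an RNA and less of that RNA per cell cannot be told apart.

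The mitochondrial ribosome translates the few mRNAs of the mitochondrial genome, which encode subunits of the respiratory chain and ATP synthase. Its proteins are encoded in the nucleus, made in the cytosol and imported, so their mRNAs and pre-mRNAs are open to nuclear and cytoplasmic RNA-binding proteins. HuR (ELAVL1) is such a protein, known for binding U-rich and AU-rich stretches in introns and 3′ UTRs. Many mitochondrial ribosomal proteins have bacterial counterparts, and others are found only in mitochondria.

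A site here is a run of overlapping reads as deposited, and its reads are counted in a gene when its midpoint lies on the gene's strand in an exon or an intron. The sites with the most reads in the exons of the members that stood highest in HuR relative to GFP lay in 3′ UTRs, apart from MRPS22. They are joined here by further 3′ UTR sites that touched no GFP site. Their sequences are shown 5′ to 3′ on the gene's strand (GRCh37), whole or as the middle 30 bases, with TTTTT and ATTTA runs in capitals, because U-rich and AU-rich elements are what HuR is known to bind.
MRPL19, chr2:75887201-75887230, plus strand: ttgcccttcTTTTTaTTTTTTTcaagtttg
MRPL19, a further site, chr2:75886574-75886603, plus strand: tATTTAtcttattttggatccttatttcat
MRPL42, chr12:93895371-93895400, plus strand: gcatATTTAagacaggctagcattttcaat
MRPS16, chr10:75010380-75010409, minus strand: gcTTTTTTcgactttgtcttgggatagaca
MRPS35, chr12:27908467-27908491, plus strand: ttaaaaaatcaTTTTTTTTcctcag
MRPL50, chr9:104152585-104152614, minus strand: atgtatcatcTTTTTTTTTctcatattaca
MRPS14, chr1:174983519-174983540, minus strand: TTTTTTataccctccttttaag
MRPS23, chr17:55915773-55915802, minus strand: TTTTTaagggcaggTTTTTTTTgccacaat
MRPL20, chr1:1337377-1337406, minus strand: ttatacttttgtttatctacaacccaataa

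The second set, shown for contrast, are sites that held most of the reads of a member in a library and on which single values below rest. They are short. None of these sequences holds TTTTT or ATTTA, so none has capitals.
MRPS22 5′ UTR, chr3:138724756-138724772, plus strand: acgagtcgtcctgcgct
MRPL54 coding sequence, chr19:3765300-3765315, plus strand: cctgaaaccggatgct
MRPL23 intron, chr11:1979550-1979564, plus strand: gttcggctagggggt
MRPS31 intron, chr13:41326086-41326107, minus strand: ttcttgagagtcttgaaggaac
MRPL19 intron, chr2:75874093-75874110, plus strand: gggaggcgaacctggaga
MRPS11 intron, chr15:89019889-89019907, plus strand: agccttgaagcctagggtg
MRPS2 intron, chr9:138394836-138394853, plus strand: ctcgcctgtcacgcaccg

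Over their whole length the sites of the first set ran from 25 T of 66 bases at MRPL42, 41 of 106 at MRPS16 and 14 of 35 at MRPL20 to 19 of 30 at the first MRPL19 site. Those of the second set ran from 1 T of 18 bases at the MRPL19 intron site to 7 of 22 at MRPS31, so the sets came close to each other. Both sets were picked by their reads, so the contrast is a description without a test. When T was allowed to be read as C, the MRPS14 site matched 5 other places in the genome and the MRPS35 site 2. All of these had more than a single C for T, and the other sites of the first set matched no other place. Whether reads came from those places was not tested.

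The libraries held 38644636 (G20), 6187300 (G35), 7539669 (G45), 9525265 (HuR1), 32111810 (HuR2) and 35924998 (Total) reads in sites. Values are given as RPM, the reads-per-million of that total. The 10 deepest sites of the genome took 76.5% of the reads in G20 and 61.9% in Total but 2.46% in HuR2. Those reads count in the total, so they lower the RPM of all other sites in G20 and Total. A count of 0 allows up to 3 reads, which is between 0.0776 RPM in G20 and 0.485 RPM in G35. Reads carried no molecular identifiers, so such limits and the 95% Wilson intervals given with shares cover counting error only.

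The members were well represented among protein-coding transcripts in every library. Their exons held 2990 reads in G20, 693 in G35, 640 in G45, 4780 in HuR1, 13573 in HuR2 and 20327 in Total. All 78 had an exon read in G20 and in Total, whereas 17 had none in G35, 17 had none in G45, 5 had none in HuR1 and 1 had none in HuR2, and none stayed under 3 reads in every library. In RPKM, which is RPM per kilobase of exon, the median member stood at 0.351, 0.439 and 0.347 in G20, G35 and G45, at 0.446 and 0.969 in HuR1 and HuR2, and at 2.51 in Total. The median of all protein-coding genes in the same libraries was 0.0589, 0.0423, 0.0712, 0.150, 0.161 and 0.374. The median member lay above between 75.8% (HuR1) and 85.5% (Total) of all genes. The name groups had medians of 2.50 for MRPL and 2.72 for MRPS in Total and of 0.921 and 1.00 in HuR2.

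The order of the members by RPKM differed between Total and the immunoprecipitates. In Total the highest were MRPL9 (19.1), MRPL40 (15.9), MRPS18B (15.1), MRPL3 (13.3) and MRPL18 (11.3), and the lowest was MRPS17 at 0.331. With a single Total library, neighbours in that order have no spread to be set against. In the mean of the HuR libraries the highest were MRPS22 (23.2), MRPL33 (8.63), MRPL54 (7.25), MRPL4 (5.39) and MRPS21 (5.32). In the mean of the GFP slices MRPL33 (2.75), MRPS34 (2.37), MRPL54 (2.17), MRPL4 (1.69) and MRPS21 (1.6) led, so MRPL33, MRPL54, MRPL4 and MRPS21 were in both lists. MRPL33, MRPL4 and MRPS21 are counterparts of bacterial ribosomal proteins, and MRPL54 is found only in mitochondria.

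Those means hid wide gaps between libraries. MRPL33 had 0.658, 4.74 and 2.86 RPKM in G20, G35 and G45, 2.26 in HuR1, 15.0 in HuR2 and 4.68 in Total. MRPL54 had 1.68, 1.31 and 3.5 in the slices, 13.4 in HuR1, 1.07 in HuR2 and 2.20 in Total. For MRPL33 HuR2 was the high library and for MRPL54 HuR1, and in both genes the other HuR library lay inside the range of the slices or below it.

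MRPL4 was of the same kind, with 1.55, 1.94 and 1.59 RPKM in the slices, 9.82 in HuR1 and 0.963 in HuR2. MRPS21 had 1.36, 1.94 and 1.502 RPKM in the slices, 2.87 in HuR1, 7.78 in HuR2 and 9.22 in Total. Only MRPS21 of these 4 genes had both HuR libraries above all slices. In 36 members a pseudogene of the same name is annotated elsewhere, 79 in all and 8 for MRPS21, and although the authors kept uniquely mapping reads, the counts of such genes are less certain. The median in Total was 2.36 for members with a named pseudogene and 2.94 for those without, and in HuR2 0.989 and 0.899.

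**Figure D1:**
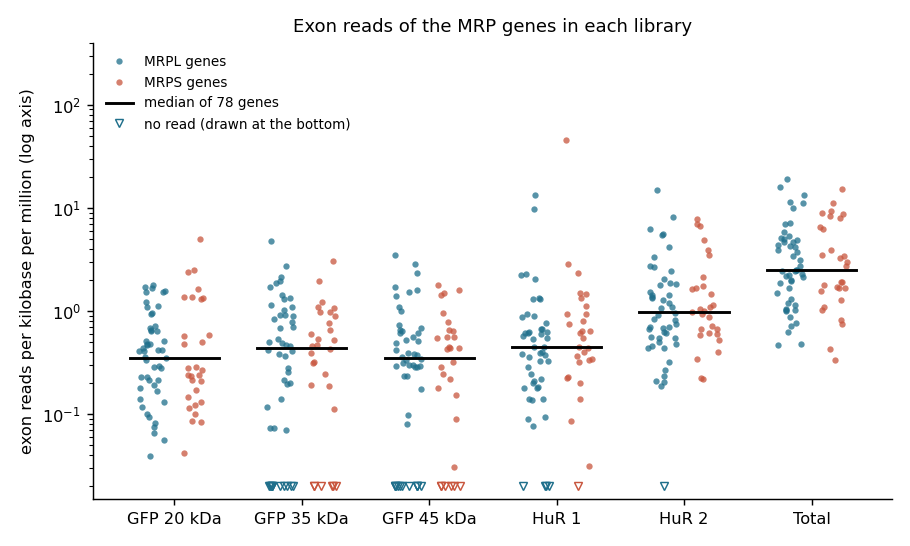
Exon level of the 78 members in each of the 6 libraries, in reads per kilobase and reads-per-million (RPKM) on a log axis, with the library medians. The median was highest in Total at 2.51, and MRPS22 stands alone at 45.8 in HuR1.

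To ask which members HuR held relative to their abundance, HuR was set against Total as log2 of (RPM + 0.5), each ratio centred on its median over all genes tested. A gene was called at 2-fold or more in the same direction in both replicates, with no test because Total is 1 library. Of the 78 members 2 were higher in HuR, beside 8.9% of 14500 genes, and 30 were lower, beside 15.4% of those genes. The median member stood at -0.81 in HuR1 and -0.67 in HuR2. MRPL genes gave 1 higher and 18 lower of 49, and MRPS genes gave 1 higher and 12 lower of 29. Called on 1 replicate alone, 6 members were higher in HuR1 and 11 in HuR2. The 8.9% of all genes belongs to the call in both replicates and cannot be set beside those counts. Without centring no member was higher, and the centring itself was -1.03 in HuR1 and -0.36 in HuR2.

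The members above Total were MRPL19, the counterpart of a bacterial large-subunit protein, and MRPS28. MRPL19 exons had 18.7 RPM in HuR1 and 68.5 in HuR2 against 16.8 in Total, from 178, 2199 and 605 reads. Its centred log2 ratios were 1.18 and 2.35. MRPS28 had 1.68 and 3.86 RPM in HuR against 1.36 in Total, with ratios of 1.26 and 1.59. HuR2 was the higher replicate in both genes.

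At the other end were abundant mRNAs with few HuR reads. MRPL40, named for a protein found only in mitochondria, had 11.8 RPM in Total, 0.105 in HuR1 and 0.685 in HuR2, and centred log2 ratios of -3.31 and -3.01. MRPL9, a counterpart of a bacterial protein and the highest member in Total, had 24.3 RPM there, 0.420 in HuR1 and 3.08 in HuR2, with ratios of -3.72 and -2.43. MRPL37 (-2.49 and -3.59), MRPS18A (-2.51 and -3.19) and MRPS12 (-2.72 and -2.67) completed the lowest 5. In all 5 both replicates lay below Total.

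The ratios were next set against the length of the 3′ UTR, the region where HuR is known to bind many mRNAs. That length joins the bases annotated as 3′ UTR in any protein-coding transcript of the gene, without coding sequence. It can thus exceed the 3′ UTR of any single mRNA, and which transcripts these cells held was not measured. Exon lengths were joined over transcripts in the same way. Of the members above, MRPL19 has 7363 bases of 3′ UTR and MRPS28 has 802. Of the lowest 5, MRPL40 has 116, MRPL37 299, MRPL9 406, MRPS12 471 and MRPS18A 563. The members as a whole have short exons, with a median of 1652 bases against 3461 for all genes, and a median 3′ UTR of 656.5 bases against 1238. Over the 78 members Spearman's rho between 3′ UTR length and the ratio to Total was 0.39 in HuR1 and 0.47 in HuR2 (Pearson's r 0.37 and 0.46 with log length). These are correlations across genes, which share their libraries and are not independent replicates. The same rho over 14438 genes was 0.20 in HuR1 and 0.39 in HuR2. With exon length in place of 3′ UTR length, rho over the members was 0.32 in HuR1 and 0.36 in HuR2. Over all genes it was 0.15 and 0.24. These lengths were not separated, so the relation cannot be given to the 3′ UTR alone.

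Cut into 3 sets of 26 by 3′ UTR length, the members with 54 to 395 bases had median ratios of -1.53 in HuR1 and -1.57 in HuR2, with 0 higher and 13 lower. Those with 406 to 936 bases had medians of -1.10 and -1.30, with 1 higher and 12 lower. Those with 973 to 15334 bases had medians of -0.12 and 0.33, with 1 higher and 5 lower. In the GFP slices rho over the members was -0.33 (G20), 0.17 (G35) and 0.06 (G45), beside -0.32, -0.09 and -0.11 over 13570 genes. All of these ratios share the Total library, and Total reads themselves depend on the length of the exons.

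**Figure D2:**
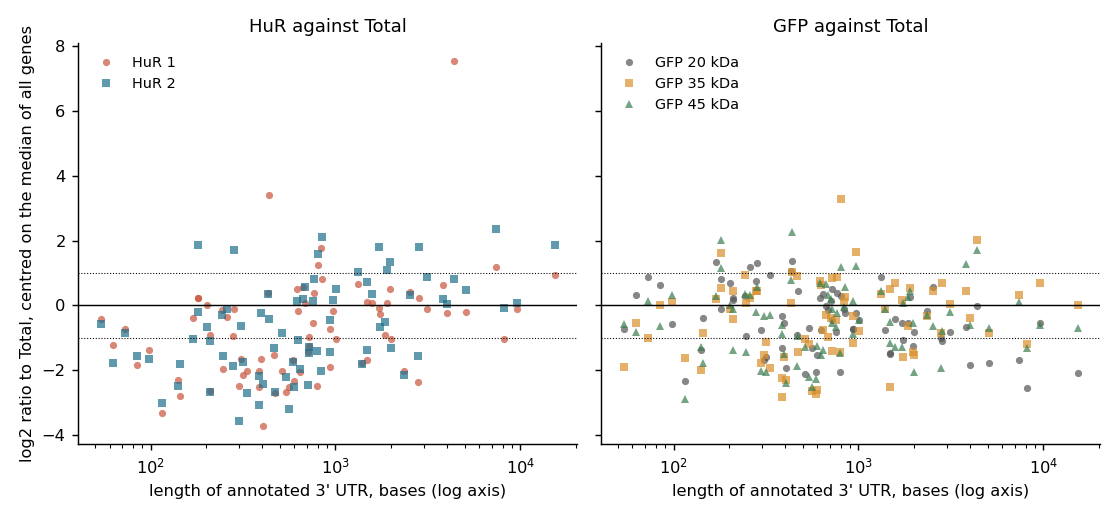
Length of the annotated 3′ UTR, joined over transcripts (bases, log axis), against the centred log2 ratio of exon reads to Total, for the 78 members in HuR and in GFP. The third of the members with the longest 3′ UTRs had a median of 0.33 in HuR2 against -1.57 for the third with the shortest.

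The same comparison in the GFP slices asks which members appear in background out of proportion to their abundance, and it uses the same Total library. All 3 slices lay at least 2-fold above Total for 1 member, beside 11.2% of 13631 genes, and at least 2-fold below for 11 members, beside 7.31%. The median member was at -0.55, -0.32 and -0.55 in G20, G35 and G45. MRPL54 was the member above, with 1.66, 1.29 and 3.45 RPM against 2.17 in Total and centred ratios of 1.36, 1.03 and 2.28. Without centring its mean ratio was -0.11, so its direction rests on the scaling. Without G20, 5 members were above Total. The 11.2% of all genes belongs to the call in all 3 slices and cannot be set beside that count.

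The lowest members in GFP were MRPL47 (-2.07, -2.73 and -2.29), MRPL40 (-2.35, -1.62 and -2.91), MRPL9 (-1.92, -2.32 and -2.40), MRPS18A (-1.32, -2.64 and -2.54) and MRPS18B (-1.52, -2.63 and -1.26). MRPL40, MRPL9 and MRPS18A were also among the 5 lowest in HuR against the same Total library. MRPL47, whose bacterial counterpart sits near the exit of the peptide tunnel, had 0.259, 0 and 0.133 RPM in the slices against 9.63 in Total.

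HuR was next compared with GFP directly on exon reads, with edgeR's quasi-likelihood test on 9540 genes. In this scale the median of all genes is held near 0, at -0.02, and scaling by library totals would move it to 1.62, so a difference is relative to other genes and not to the RPM printed beside it. No gene of the 9540 passed a Benjamini-Hochberg adjusted p of 0.05 (0.0% in each direction), and none of the 57 members tested did. At an unadjusted p under 0.05 edgeR gave 2503 genes and 13 members, 4 higher and 9 lower in HuR, which are 7.02 and 15.8% of those tested beside 11.1 and 15.1% of all genes. DESeq2 called 3 members higher and 5 lower (5.26 and 8.77%), beside 5.29 and 8.54% of all genes. The members' median log2 fold change was -0.10.

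Among the members with the smallest p on the higher side, 7 of 8 had their deepest site in the 3′ UTR. MRPS16, a counterpart of a bacterial small-subunit protein, had 0.75, 0.646 and 1.46 RPM in G20, G35 and G45, 6.09 in HuR1 and 18.2 in HuR2. MRPL42, found only in mitochondria, had 2.07, 10.99 and 6.10 RPM in the slices, 32.5 in HuR1 and 98.6 in HuR2. MRPL19 had 1.19, 6.63 and 5.17 RPM in the slices before 18.7 and 68.5 in HuR. In all 3 genes both HuR libraries lay above every slice and HuR2 was the higher replicate.

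By edgeR's quasi-likelihood test their log2 fold changes were 2.07 ± 0.66 (SE, adjusted p = 0.107) for MRPS16, 1.97 ± 0.74 (adjusted p = 0.140) for MRPL42 and 1.89 ± 0.71 (adjusted p = 0.142) for MRPL19. MRPS35 (1.49), MRPL50 (1.84), MRPS14 (2.02) and MRPS23 (1.06) followed, with adjusted p between 0.213 and 0.273. None of these differences passed the threshold. Under DESeq2 MRPS16 (adjusted p = 0.0453) and MRPL42 (adjusted p = 0.0385) were past it.

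Most exon reads of these genes in HuR lay in their 3′ UTRs. In HuR2 the 3′ UTR held 96.7% of the exon reads of MRPS16, 99.3% of MRPL42 and 97.8% of MRPL19, whereas the slices ranged from 36.4% (MRPS16 in G45) to 100% (MRPS16 in G35, from few reads). MRPL42 and MRPL19 also had 2417 and 2092 intron reads in HuR2. At the first MRPL19 site shown above, G20, G35 and G45 had 1, 0 and 10 reads, HuR1 had 12 and HuR2 had 281, with 108.5 conversion events per 100 reads in HuR2. At the MRPS16 site the counts were 3, 3, 0, 30 and 335, and at the MRPL42 site 5, 0, 5, 20 and 323. The HuR2 value was the highest of these libraries at each of them, also in RPM (8.75, 10.4 and 10.1). In RPM HuR1 (1.26) lay below G45 (1.33) at the MRPL19 site. It lay above every slice at the MRPS16 (3.15) and MRPL42 (2.10) sites.

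The deepest HuR exon sites that touched no GFP site in any slice were the second MRPL19 site and those of MRPL20 and MRPL50, all in 3′ UTRs. The MRPL19 site had 11 reads in HuR1 and 148 in HuR2, with 118.2 and 108.8 events per 100 reads. The MRPL20 site had 3 and 154 reads, and the MRPL50 site, in a gene with 2836 bases of annotated 3′ UTR, had 3 and 142. In HuR1 those last counts are at the limit that a count of 0 allows.

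MRPS22 had the largest fitted difference, and it was of another kind. Its exons had 0.595, 4.2 and 3.05 RPM in the slices, 323 in HuR1, 4.30 in HuR2 and 3.03 in Total. HuR1 stood alone, and HuR2 lay just above the highest slice. Its log2 fold change was 5.44 ± 1.69 (SE, edgeR's quasi-likelihood test, adjusted p = 0.105), -0.70 without HuR1 and -1.06 with each gene's deepest site removed. The 17-base 5′ UTR site shown above held 3069 reads in HuR1 and 0 in HuR2, with 8, 10 and 16 in the slices, and conversion events at 0.0326 per 100 reads in HuR1. It was 64.2% of all member exon reads of HuR1. The MRPL54 value in HuR1 rests likewise on a coding site with 123 of the gene's 126 reads and no conversion event.

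On the lower side 7 of 8 members had their deepest site in coding sequence, MRPS12 being the exception. Those sites were deepest in G20, which had most of its reads in coding sequence, and 7 of the 8 on the higher side were deepest in HuR2, so the contrast repeats the regions of those libraries. MRPL38, found only in mitochondria, had 2.30, 2.91 and 0.398 RPM in G20, G35 and G45, and 0.105 and 0.436 in HuR. MRPS12, the counterpart of the bacterial protein at the decoding centre, had 2.98, 0.485 and 0.796 RPM in the slices and 0.105 and 0.498 in HuR. MRPS34, a mitochondria-specific small-subunit protein, had 5.23, 0.323 and 1.86 RPM and then 0.630 and 0.623. In each of these genes a slice lay inside or below the HuR range, G20 or G35 was the highest slice, and Total, at 7.18, 7.65 and 9.02 RPM, lay above all slices.

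Their log2 fold changes by edgeR's quasi-likelihood test were -4.34 ± 1.15 (SE, adjusted p = 0.0894) for MRPL38, -4.10 ± 1.27 (adjusted p = 0.104) for MRPS12 and -3.68 (adjusted p = 0.121) for MRPS34. MRPL28, MRPL43, MRPS7, MRPL55 and MRPL2 were at -2.59, -2.92, -2.00, -2.88 and -2.57, with adjusted p between 0.116 and 0.148. With library totals the difference for MRPL38 was -2.63. The deepest member exon site was in MRPS34 in G20, MRPS28 in G35 (31 reads), MRPL54 in G45 (17 reads), MRPS22 in HuR1, MRPS16 in HuR2 and MRPS18B in Total (523 reads, 3′ UTR). At the MRPS34 site, in coding sequence at chr16:1822405-1822514, G20 had 62 reads, G35 had 2, and G45 and both HuR libraries had 0.

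**Figure D3:**
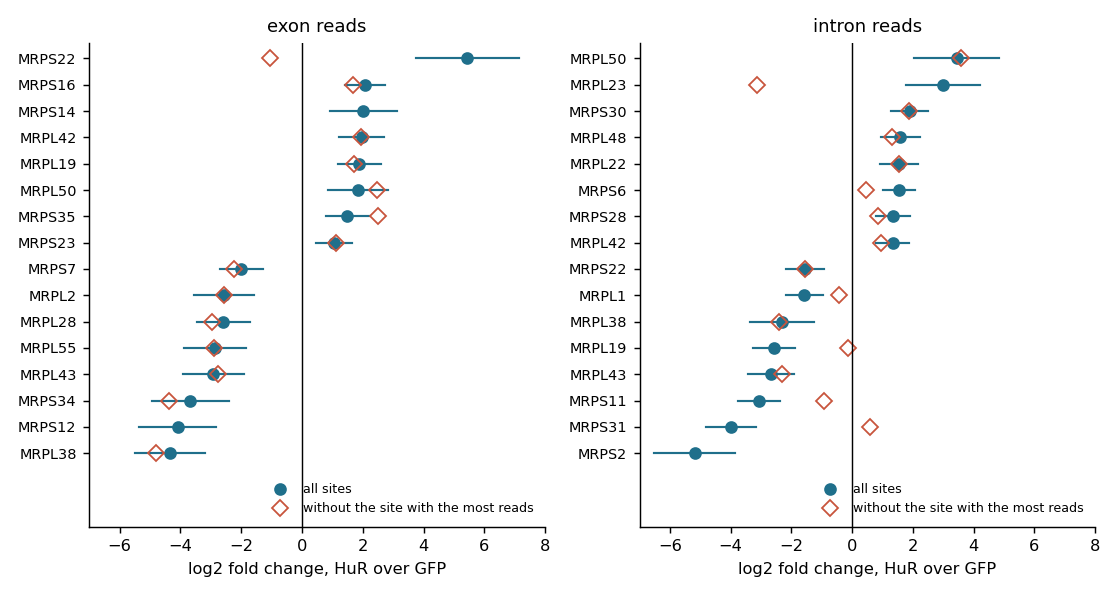
Log2 fold change of HuR over GFP in edgeR for the members named in that comparison, on exon reads and on intron reads. Dots are fits on all sites with a bar of the SE to each side, and open diamonds are fits without each gene's deepest site. The direction for MRPS22 exons and for MRPL23 and MRPS31 introns turned without that site.

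Related gene lists were not alike in this comparison. The median exon log2 fold change was -2.09 for cytosolic ribosomal protein genes, with 1 of 68 higher and 37 lower at an unadjusted p under 0.05 (1.47 and 54.4%, beside 11.1 and 15.1% of all genes). It was -1.66 for nuclear genes of the respiratory chain and ATP synthase, with 2 of 70 higher and 23 lower (2.86 and 32.9%). Mitochondrial translation and ribosome assembly factors had a median of -0.58, with 0 of 28 higher and 2 lower, and the 4 tested other mitochondrial ribosome proteins, such as DAP3, had a median of -0.45 with none in either direction. After adjustment by edgeR none of these lists had a called gene, as for all genes, whereas DESeq2 called 24 cytosolic ribosomal protein genes and 15 respiratory genes lower (35.3 and 21.4%, beside 8.54% of all genes). With library totals the medians were -0.16 for cytosolic ribosomal proteins, 0.08 for the respiratory genes and 1.63 for the members beside 1.62 for all genes, so the sign for the respiratory genes turned and that for the cytosolic ribosomal proteins was near 0, while both lists stayed below the median of all genes. Against Total, HuR was higher for 3 and lower for 40 of 82 cytosolic ribosomal protein genes. Of 84 respiratory genes 5 were higher and 45 lower. Over all 14500 genes in that comparison 8.9% were higher and 15.4% lower.

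Introns of the members carried more reads than their exons in every library but G20 and Total. Introns held 46.8% (interval 45.5 to 48.1) of member reads in G20, 80.0% (78.7 to 81.3) in G35 and 84.1% (82.9 to 85.2) in G45. They held 70.7% (70.0 to 71.4) in HuR1, 79.7% (79.4 to 80.0) in HuR2 and 40.2% (39.7 to 40.7) in Total. Over all genes the shares were 95.9, 84.1, 87.5, 82.9, 84.6 and 48.1%. Counted by sites, introns held 49.3, 61.7 and 61.1% of member sites in the slices, 83.7 and 85.0% in HuR and 71.1% in Total, beside 58.7, 74.2, 75.2, 89.5, 90.5 and 78.0% over all genes, so by sites the members were lower in every library. Without the single deepest member site of each library HuR1 fell to 57.6% and G35 to 69.1%. An exact permutation test over 2 against 3 libraries cannot reach 0.05, so the shares of GFP and HuR were not tested.

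On intron reads edgeR's quasi-likelihood test covered 12308 genes and 51 members. No member was called higher in HuR, beside 0.357% of all genes, and 4 were called lower, beside 4.05%. At an unadjusted p under 0.05 edgeR gave 9 members higher and 8 lower (17.6 and 15.7%, beside 11.5 and 14.5% of all genes). DESeq2 called 2 higher and 5 lower (3.92 and 9.8%), beside 3.68 and 11% of all genes. The members' median log2 fold change was 0.53 against 0.02 for all genes, and library totals would move the latter to 2.75. With library totals 29 of 52 members were higher and none lower, where 40% of 12524 genes were higher.

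The called members were MRPS31, MRPS11, MRPS2 and MRPL19, and each rested on a single short site. MRPS31 introns, of a mitochondria-specific small-subunit protein, had 17.2, 202 and 179 RPM in G20, G35 and G45, 17.6 in HuR1, 76.7 in HuR2 and 10.9 in Total. G35 and G45 were high and G20 lay with HuR1, so the groups overlapped in RPM. The log2 fold change was -3.98 ± 0.82 (SE, edgeR's quasi-likelihood test, adjusted p = 0.0190). Without HuR1 the adjusted p was 0.0591 and without HuR2 0.0797. With each gene's deepest site removed the log2 fold change was 0.58.

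The MRPS31 site was the deepest intron site of the members in all slices, with 652, 1226 and 1327 reads, or 24.8, 44.2 and 39.2% of their member intron reads. It had 20 reads in HuR1, 982 in HuR2 and 3 in Total. It carried more than 100 conversion events per 100 reads in the slices and in HuR2, and its sequence matched no other place in the genome when T was allowed to be read as C.

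MRPL19 introns had 6.96, 64.8 and 102 RPM in the slices and 34.4 and 65.1 in HuR, with a log2 fold change of -2.58 ± 0.68 (edgeR's quasi-likelihood test, adjusted p = 0.0493). The groups overlapped, and the call was lost without G35, G45, HuR1 or HuR2, with adjusted p between 0.0891 and 0.255. Its deepest intron site had 233, 371, 725, 185 and 214 reads in G20, G35, G45, HuR1 and HuR2 but 1 in Total. It had no conversion event in any library, the slices included. Without it the difference was -0.14.

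MRPS11 introns had 2.85, 9.37 and 6.63 RPM in the slices, 2.84 and 8.28 in HuR and 53.7 in Total, with a log2 fold change of -3.07 ± 0.69 (edgeR's quasi-likelihood test, adjusted p = 0.0271). Its site had 1780 reads in Total, 85, 53 and 49 in the slices, 0 in HuR1 and 31 in HuR2. Nearly every read carried a conversion event, all at 1 position. The 19-base form of the site shown above matched 2 other places in the genome, on an unplaced scaffold, with C for a T, and the 20-base form that Total had matched none. MRPS2 had 53 reads at its site in G20, 3 in G35, 1 in G45 and 0 in both HuR libraries, again with every conversion at 1 position and 1 match elsewhere with C for T. Whether these reads came from the other places was not tested.

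The fitted difference of MRPS2 was -5.19 ± 1.32 (edgeR's quasi-likelihood test, adjusted p = 0.0438), and with its deepest site removed it had too few reads to be tested. For MRPS11 the difference was then -0.91 (adjusted p = 0.644), and it lost the call without either HuR replicate (adjusted p = 0.0765 without HuR1 and 0.103 without HuR2). Of the members with the next smallest p on the lower side, MRPL43 was at -2.68 (adjusted p = 0.0612), MRPL1 at -1.57, MRPS22 at -1.55 and MRPL38 at -2.32. With library totals MRPL1, MRPS22 and MRPL38 were at 0.85, 0.78 and 0.69, so their direction rests on the scaling.

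On the higher side introns of several members had many HuR reads in both replicates, none past the threshold. MRPS30, which despite its name encodes a protein of the large subunit, had 0.569, 1.94 and 2.79 RPM in the slices, 21.0 in HuR1 and 68.1 in HuR2, with a log2 fold change of 1.89 ± 0.61 (edgeR's quasi-likelihood test, adjusted p = 0.0906). MRPS6, a counterpart of a bacterial protein, had 2.02, 12.6 and 7.29 RPM in the slices and 112 and 130 in HuR. MRPS28 had 1.47, 13.6 and 6.37 RPM and then 51.1 and 165. In these 3 genes both HuR libraries lay above every slice.

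MRPL42 introns had 0.802, 5.01 and 5.17 RPM in the slices and 32.6 and 75.3 in HuR, so both its exons and its introns were higher in RPM in both HuR libraries. MRPL50 had 0.0518, 0 and 0 RPM in the slices, of which the zeros allow up to 0.485 in G35 and 0.398 in G45, and 2.41 and 7.16 in HuR. MRPL48 (1.58) and MRPL22 (1.54) had log2 fold changes like that of MRPS6 (1.54). The deepest MRPS30 intron site had 5, 0 and 0 reads in the slices, 21 in HuR1 and 270 in HuR2. The deepest MRPS6 site was the reverse, with 705 reads in HuR1 and 14 in HuR2, 100.6 events per 100 reads in HuR1, and no other genome match.

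MRPL23 had the highest intron RPM of the members in the mean of the HuR libraries (269, before MRPS6 at 121 and MRPS28 at 108; introns differ in length). Its values were 3.26, 8.24 and 5.57 RPM in the slices, 534 in HuR1, 3.77 in HuR2 and 4.01 in Total, so HuR1 alone was high and HuR2 lay within the slices. The log2 fold change was 3.00 (edgeR's quasi-likelihood test, adjusted p = 0.147), -3.67 without HuR1 (adjusted p = 0.0422), 4.00 without HuR2 (adjusted p = 0.0322) and -3.15 without the deepest site. The 15-base site had 5042 reads in HuR1 and 1 in HuR2, 43.7% of the member intron reads of HuR1, with no conversion event in any library. It matched 29 other places in the genome when T was allowed to be read as C. Of these 0 were identical to the site, 1 had a single C for T and 28 had more. Where the reads came from was not tested.

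**Figure D4:**
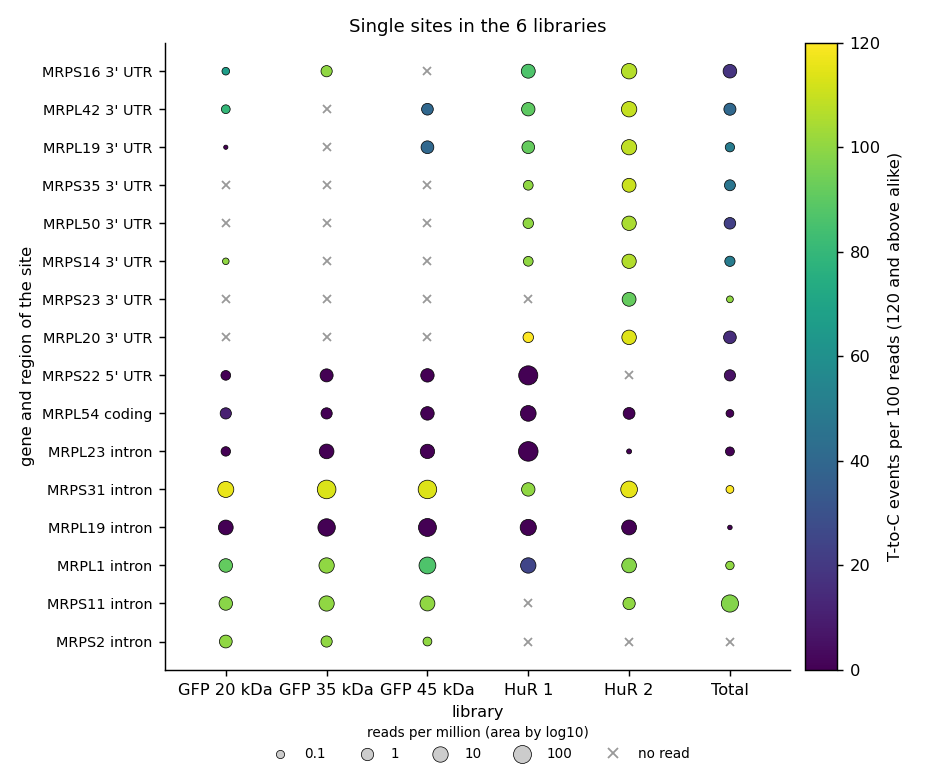
RPM at the named sites in each library, drawn as dot area on a log scale, with the frequency of T-to-C conversion events as colour. The 3′ UTR sites of MRPL19, MRPS16 and MRPL42 are highest in HuR2, the MRPS22 and MRPL23 sites in HuR1, and the MRPS31 site in the slices and HuR2.

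Within exons the reads of the members lay in different regions in different libraries. The 3′ UTR held 26.9% (25.4 to 28.5) of exon reads in G20, 45.2% (41.5 to 48.9) in G35, 43.1% (39.3 to 47.0) in G45, 88.5% (87.9 to 89.0) in HuR2 and 49.2% (48.5 to 49.9) in Total. HuR1 stood at 27.4% (26.1 to 28.6), and at 76.4% once its deepest site, that of MRPS22, was left out. Coding sequence held 66.2% in G20, 47.8% in G35, 44.7% in G45, 6.44% in HuR1, 9.05% in HuR2 and 47.4% in Total. Among the exon bases of the members 60.7% are 3′ UTR. Without the MRPS22 site the coding share of HuR1 was 18.0%. Both HuR libraries lay below every slice in coding sequence with or without their deepest site, and HuR2 lay above them in 3′ UTR. Over all genes the 3′ UTR share was 23.2, 30.03 and 33.9% in the slices, 42.0% in HuR1, 84.3% in HuR2 and 34.9% in Total.

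**Figure D5:**
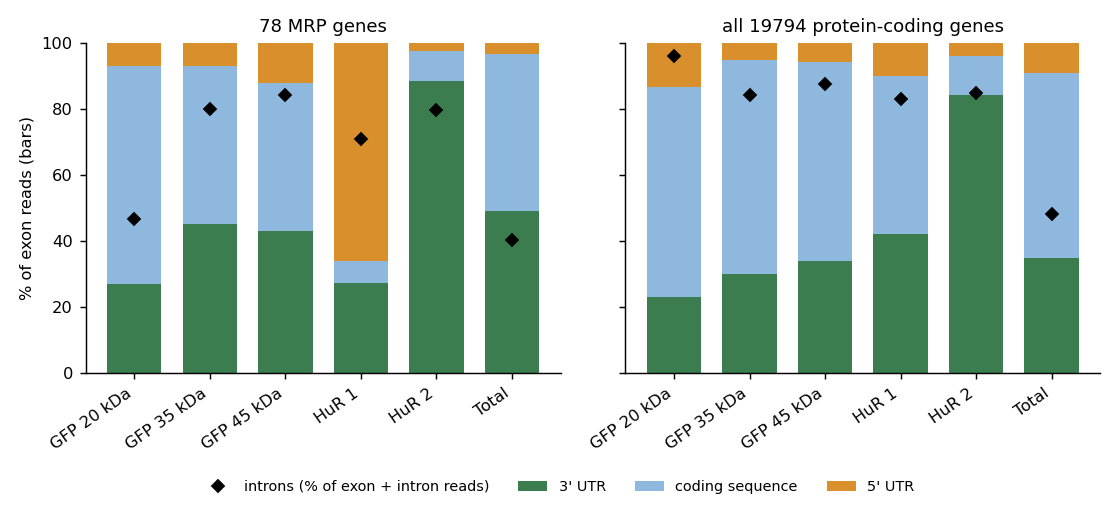
Share of member exon reads in 3′ UTR, coding sequence and 5′ UTR, in percent, for each library. HuR2 has 88.5% in 3′ UTR, G20 has 66.2% in coding sequence, and the 5′ UTR share of 66.2% in HuR1 is mostly the single MRPS22 site.

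Conversion events per 100 member exon reads were 18.0, 63.8 and 48.4 in G20, G35 and G45, 25.1 in HuR1, 102 in HuR2 and 16 in Total. Without the deepest site HuR1 had 70.1. By region HuR1 had 77.7 events per 100 reads in 3′ UTRs and 1.77 in 5′ UTRs, and HuR2 had 102 in 3′ UTRs. In introns the numbers were 57.5, 81.7 and 71.2 in the slices, 49.9 in HuR1, 102 in HuR2 and 32.1 in Total, and without the deepest intron site 38.2, 56.8 and 43.8, then 88.6 and 102, and 22.3. The slices thus had more events than Total in member introns throughout, and in member exons G35 and G45 were well above it while G20 was near it. Over all genes, exons had 20.8, 45.4 and 44.6 events per 100 reads in the slices, 46.0 and 98.3 in HuR and 14.5 in Total. Introns of all genes had 9.13, 56.6 and 47.9 in the slices, 65.5 and 97.3 in HuR and 26.3 in Total. In introns of all genes G20 thus lay below Total, the reverse of the members.

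Part of the HuR signal on the members lay where a GFP slice also had a site. At least 1 base was shared with a GFP site by 83.4% (82.3 to 84.4) of member exon reads in HuR1 and 43.9% (43.1 to 44.8) in HuR2. Counted by sites the shares were 33.0% and 32.6%. Over all genes 70.1% and 51.6% of reads and 26.6% and 26.9% of sites overlapped. Without the deepest member site the reads were 53.6% in HuR1 and 42.5% in HuR2. By region the reads that overlapped in HuR2 were 60.3% in coding sequence, 42.4% in 3′ UTRs, 40.4% in 5′ UTRs and 19.6% in introns, and in HuR1 76.0, 48.5, 98.5 and 58.4%.

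Merged over both replicates, HuR had 1347 exon intervals in the members, of which 370 (27.5%) were found in both replicates and 907 touched no GFP site. In 42 members there were 231 intervals that met both conditions. Of the 142 exon sites of G35, 21 in 18 genes were also present in G20 and G45, with 17.2% of its exon reads. In introns 18 of 229 G35 sites in 13 genes were in all slices, with 67.4% of the reads. The MRPS31 site alone held 44.2% of the member intron reads of G35. The interval and recurrence counts were not made over all genes, so they describe the members without setting them apart from other genes.

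Sequence around the sites was searched for U-rich, AU-rich and G-rich runs. TTTTT was present in the 41-base window of 3.14% of member exon sites in G20, 14.8% in G35, 14.2% in G45, 14.2% in HuR1, 17.1% in HuR2 and 7.01% in Total, on the strand of the gene. Windows of all exon sites gave 3.60, 10.9, 12.1, 15.4, 20.1 and 6.84%. The ATTTA shares of member windows were 2.66, 2.82 and 5.11% in the slices, 8.28% in HuR1, 9.29% in HuR2 and 5.39% in Total. By sites HuR had the highest ATTTA shares of the members, whereas its TTTTT shares were close to those of G35 and G45.

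Weighted by reads the members in HuR2 had TTTTT at 36.9% and ATTTA at 19.7%, beside 37% and 12.4% for all genes. The member TTTTT shares by reads were 2.44, 21.5 and 15.6% in the slices, 5.69% in HuR1 and 5.43% in Total, and those of ATTTA 1.81, 4.04 and 5.94%, 2.93% and 3.96%. In HuR1 the MRPS22 site alone was 64.2% of those reads, and G35 and G45 lay above it for both motifs. GGGG was in 20.7, 14.8 and 15.3% of member windows in the slices, 9.01% in HuR1, 12.7% in HuR2 and 12.6% in Total, so G20 had the highest share. Windows of all exon sites held GGGG at 23.4, 21.1 and 19.7% in the slices, 11.7 and 12.4% in HuR and 13.2% in Total. The motifs can overlap in a window, and a match describes the letters and not a bound site.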

How the data were processed

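PAR-CLIP reads of 6 HEK293 libraries were processed by the authors, who trimmed adapters, kept reads of at least 10 bases, aligned them to hg19 with Bowtie with at most 2 mismatches, and passed them to PARalyzer, which used uniquely placed reads whose only mismatches were T-to-C and joined overlapping reads into groups. Versions and the handling of PCR duplicates are not given in the sources used here. The deposited values used are raw counts, reads and T-to-C conversion events per group on each strand. Library depth ran from 6187300 to 38644636 reads, so 3 reads correspond to 0.0776 to 0.485 RPM (reads-per-million of the library's sites).

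The members and gene lists were chosen with earlier results of these data known. Each group was given to a protein-coding gene (GENCODE 44, GRCh37) by the midpoint and strand, coding sequence before 3′ UTR before 5′ UTR, and to an intron where no exon of another gene lay on that strand. The sequences of all 20100 member sites matched GRCh37. HuR (n = 2) was compared with the GFP slices (n = 3) by edgeR 4.0.16 (quasi-likelihood, TMM scaling, filterByExpr, Benjamini-Hochberg over all genes, threshold 0.05) in R 4.3.3, checked on simulated counts. HuR and GFP against Total used log2(RPM + 0.5), genes with at least 10 exon reads, and a 2-fold call in every library without a test. Shares have 95% Wilson intervals.

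Named members were the 8 with the smallest p in each direction of each HuR against GFP comparison, the 5 largest and smallest called ratios to Total, the 5 highest per kilobase in Total, HuR and GFP, the 3 highest in introns in HuR, the deepest exon site of each library and the 3 deepest HuR exon sites without background. The deepest sites of the other named members, and MRPS17 as the lowest in Total, were picked after their values were seen. Alternatives were DESeq2 1.42.0, library totals, other filters and pseudocounts, clusters in place of groups, other windows, and leaving out libraries. Removal of each gene's deepest site, or of the deepest member site from the background overlap, the coding share and the intron conversions, was added after the data were seen. Tables were handled in Python 3.11.15 with pandas 2.3.3 and scipy 1.17.1.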

Additional observations from a re-analysis of the deposited data

How the results depend on the processing

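Exon members called higher and lower in HuR than in GFP (0 and 0) became 3 and 5 with DESeq2, beside 5.29 and 8.54% of all genes. With library totals they were 7 and 0 of 51 (13.7 and 0%), beside 24.8 and 0.646% of all genes. With no filter they were 2 and 2 of 78, beside 763 and 351 of 17912 genes. Without each gene's deepest site they were 1 and 2 of 36, beside 442 and 623 of 6796 genes. Leaving out a GFP slice gave 0 and 0, as for all genes. Intron members called (0 and 4) became 2 and 5 with DESeq2, beside 3.68 and 11% of all genes. With library totals they were 29 and 0 of 52 (55.8 and 0%), beside 40 and 0.0878% of all genes. With no filter 2 of 78 were higher and 4 lower, beside 413 and 804 of 17791 genes. The 4 lower calls became 0 with sites of at least 5 reads, as for all genes. They became 0 without the deepest site, beside 84 of 10999 genes. Leaving out a GFP slice left 3 lower and 0 higher, where between 346 and 440 of all genes were lower. HuR above Total (2) became 4 with a pseudocount of 0.1, 0 with at least 1 exon read and 0 without centring. It became 4 without the deepest site and 6 to 11 with 1 replicate. Shares of all genes are not given for these settings or for those of GFP against Total, so the counts describe the members alone. GFP against Total (1 above, 11 below) became 6 below with a pseudocount of 0.1, 0 and 17 with at least 1 exon read, 0 and 53 without centring, 4 and 6 without the deepest site, and 1 to 5 above and 11 to 15 below without 1 slice. Directions reversed for the MRPS22 exon (-0.70 to 6.48 without 1 library, -1.06 without its deepest site), for introns of MRPL23 (-3.67 to 4.00, -3.15) and MRPS31 (0.58 without its deepest site), with library totals for introns of MRPL1 (0.85), MRPS22 (0.78) and MRPL38 (0.69), and for MRPL54 against Total without centring (-0.11). The intron share was 68.5% in the HuR mean without the deepest site (75.2% with it), and in Total (40.2%) 28.2% from clusters, 28.7% with at least 5 reads and 36.9% without the deepest site. The 3′ UTR share in Total (49.2%) was 50.9% from clusters and 47.8% without the deepest site. Clusters gave 71.7 events per 100 exon reads in the GFP mean (43.4) and 19.1 in Total (16). TTTTT in the HuR mean (15.7%) was 23.8% in 61-base windows, 21.3% by reads and 25.9% with at least 5 reads, and in Total (7.01%) 11.6% and 5.43% for the first pair. The cause was not tested in these cases beyond the removed reads, genes or libraries. No paired analysis was possible because the GFP slices carry no replicate numbers in the labels. Low depth in G35 and G45 limits members with few reads there.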
